A study of Mus musculus with 4 samples.

Results

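CpG methylation was compared in mouse embryonic stem (ES) cells by RRBS-seq, which cuts genomic DNA at CCGG with MspI and reads methylated cytosines after bisulfite conversion. The CpG sites described here were selected on the WT libraries: each had at least 10 reads in WT serum and in WT 2i + Vitamin C, was at least 80% methylated in WT serum, and was at most 10% methylated in WT 2i + Vitamin C. The rule chose 4303 CpG sites (the demethylated sites) out of 169352 that reached 80% in WT serum (2.54%), 628419 with 10 reads in both WT libraries and 7862365 listed in any library. The 4 groups were WT and Chr4-cl KO ES cells, each grown in standard serum medium with LIF or for 1 week in 2i medium with vitamin C (2i + Vitamin C, shortened to 2i below), and each group had 1 library. Chr4-cl KO cells lack a cluster of KRAB-ZFP genes on chromosome 4. They came from B6;129 mice that carry cre/ERT, an inducible Cre, at Gt(ROSA)26Sor. Per the study's methods, both KO and WT clones were picked after nucleofection, and no different origin is given for the WT cells. The KO cells were represented by 1 line, so the genotypes, the lines and the libraries cannot be told apart. No difference below therefore has a replicate check, and every test on reads compares libraries, not conditions.

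DNA methylation in mammals sits mostly on the cytosine of CpG dyads and is copied to the new strand after replication by DNMT1. TET enzymes oxidize it, and vitamin C is a cofactor that raises their activity. 2i medium holds ES cells in a naive state with inhibitors of MEK and GSK3, and is known for low methylation over most of the genome, with imprinted regions and some retrotransposons keeping more of theirs.

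Stretches of the mm9 reference around the sites that matter most below are printed 5′ to 3′ on the plus strand, with the CG of each demethylated site in capitals. The first is from the locus with most demethylated sites, chr12:105685273-105685553, an intergenic stretch 25985 bp from the nearest start site of Gsc, which encodes the homeobox factor goosecoid. The second, chr5:114073893-114074136, lies in an intron of Cmklr1, the receptor for chemerin. The third, chr11:59063286-59063520, is coding sequence of Wnt3a, a secreted WNT ligand, and the fourth, chr5:135825727-135825858, is at the promoter of Fkbp6, a germline gene needed for meiosis. The fifth, chr10:62879191-62879353, is intergenic near Gm7075 and belongs to the locus with most methylation left in KO 2i among those with at least 3 sites read 10 times in both KO libraries. The sixth, chr17:14231820-14231867, is intergenic near Gm7358 and belongs to the locus with least methylation in KO serum among the same loci. The last, chr4:43505775-43505788, holds a pair of sites upstream of Ccdc107, a gene for a coiled-coil protein, which moved in opposite directions in the WT and KO libraries.
Gsc locus: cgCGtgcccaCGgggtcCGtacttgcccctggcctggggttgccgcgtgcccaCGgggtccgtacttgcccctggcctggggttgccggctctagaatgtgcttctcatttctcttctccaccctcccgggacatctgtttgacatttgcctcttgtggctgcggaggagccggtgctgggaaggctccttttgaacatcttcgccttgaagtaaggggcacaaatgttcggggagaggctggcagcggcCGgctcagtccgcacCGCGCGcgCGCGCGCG
Cmklr1 intron: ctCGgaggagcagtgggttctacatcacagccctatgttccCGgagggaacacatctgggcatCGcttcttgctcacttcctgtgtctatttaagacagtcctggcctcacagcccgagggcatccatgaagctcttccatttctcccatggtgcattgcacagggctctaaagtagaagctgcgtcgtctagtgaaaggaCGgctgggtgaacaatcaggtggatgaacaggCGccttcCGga
Wnt3a exon: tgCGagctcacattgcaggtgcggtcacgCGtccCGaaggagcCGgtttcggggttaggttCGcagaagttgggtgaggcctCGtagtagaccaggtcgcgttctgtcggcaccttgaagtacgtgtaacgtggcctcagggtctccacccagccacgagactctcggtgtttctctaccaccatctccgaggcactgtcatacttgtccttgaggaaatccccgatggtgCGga
Fkbp6 promoter: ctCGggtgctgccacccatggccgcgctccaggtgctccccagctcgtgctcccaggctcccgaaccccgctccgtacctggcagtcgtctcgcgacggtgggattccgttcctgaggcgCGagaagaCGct
Gm7075 locus: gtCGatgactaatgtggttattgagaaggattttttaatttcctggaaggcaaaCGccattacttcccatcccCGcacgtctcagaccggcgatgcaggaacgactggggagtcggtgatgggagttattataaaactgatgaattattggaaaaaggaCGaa
Gm7358 locus: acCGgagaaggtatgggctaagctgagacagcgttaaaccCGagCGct
Ccdc107 promoter: gtCGcttcttggCG
The stretch near Gsc contains 25 CG dyads in 281 bases, of which 12 are demethylated sites, and ends in a run of CG repeats. The Cmklr1 stretch contains 9 CG dyads in 244 bases, of which 6 are demethylated sites.

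The libraries differed in depth. After dropping positions listed more than once (332 in WT serum and 830 in KO 2i, whose files each hold tables joined end to end), the reads summed over CpG sites ranged from 42672691 in KO 2i to 90649194 in WT 2i. The KO 2i library also stood apart in where its reads lay: 8.2% of its sites with 10 reads were over 50 bp from a CCGG, against 0.552% to 0.774% in the other 3 libraries. Of the demethylated sites, 4271 of 4303 lay within 50 bp of a CCGG. Without the other 32, KO 2i averaged 11.31% at 2041 sites, and 1753 of 1800 sites were called lower than in KO serum. Leaving out so few sites could hardly change these values, and it cannot tell whether reads nearer a CCGG were affected. The demethylated sites had a median of 21 reads in WT serum, 41 in WT 2i, 20 in KO serum and 9 in KO 2i. The span of the Chr4-cl genes held 83433 reads in WT serum and 102482 in WT 2i, but 815 and 1124 in the KO libraries, in accord with the labels. In place of expression, only promoter methylation of ES cell markers could be read. In WT serum the mean was 3.96% at Pou5f1, 1.25% at Sox2, 1.69% at Klf4, 1.40% at Tdgf1, 2.94% at Zfp42 and 13.3% at Esrrb. The 4 covered sites of the Dppa3 promoter averaged 63.9% in WT serum and 10.1% in WT 2i, and the Nanog promoter had no covered site.

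The demethylated sites averaged 87.2% ± 5.65 methylation in WT serum and 6.18% ± 2.94 in WT 2i (mean ± SD over 4303 sites). These WT values chose the sites and are a description. Only 394 of the 4303 sites (9.16%) had no methylated read in WT 2i, so most were not fully unmethylated in the reads. For comparison, sites at 10% or less in WT serum averaged 2.24% in WT 2i. The bisulfite conversion rate is not given in the sources used here. Sites just inside the limit of 10% (8 to 10% in WT 2i, 1415 sites) averaged 13.4% in KO 2i, and those just outside (over 10 to 12%, 1488 sites) averaged 14.5%. On the side of WT serum, sites at 80 to under 82% averaged 83.3% in KO serum, and sites at 78 to under 80% averaged 83.6%.

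In the KO libraries, which the rule did not use, the same sites were high in serum and low in 2i. They averaged 86.0% ± 11.04 in KO serum (3296 sites with 10 reads, median 88.2%) and 11.3% ± 10.4 in KO 2i (2061 sites with 10 reads, median 8.70%). In KO serum 79.2% of them reached 80%, and in KO 2i 57.5% were at 10% or less. The other sites at 80% or more in WT serum averaged 92.2% in KO serum and 46.3% in KO 2i. Of these other sites, 95.6% reached 80% in KO serum and 3.96% were at 10% or less in KO 2i. Over all covered sites, 29.7% reached 80% in KO serum and 72.6% were at 10% or less in KO 2i.

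**Figure D1:**
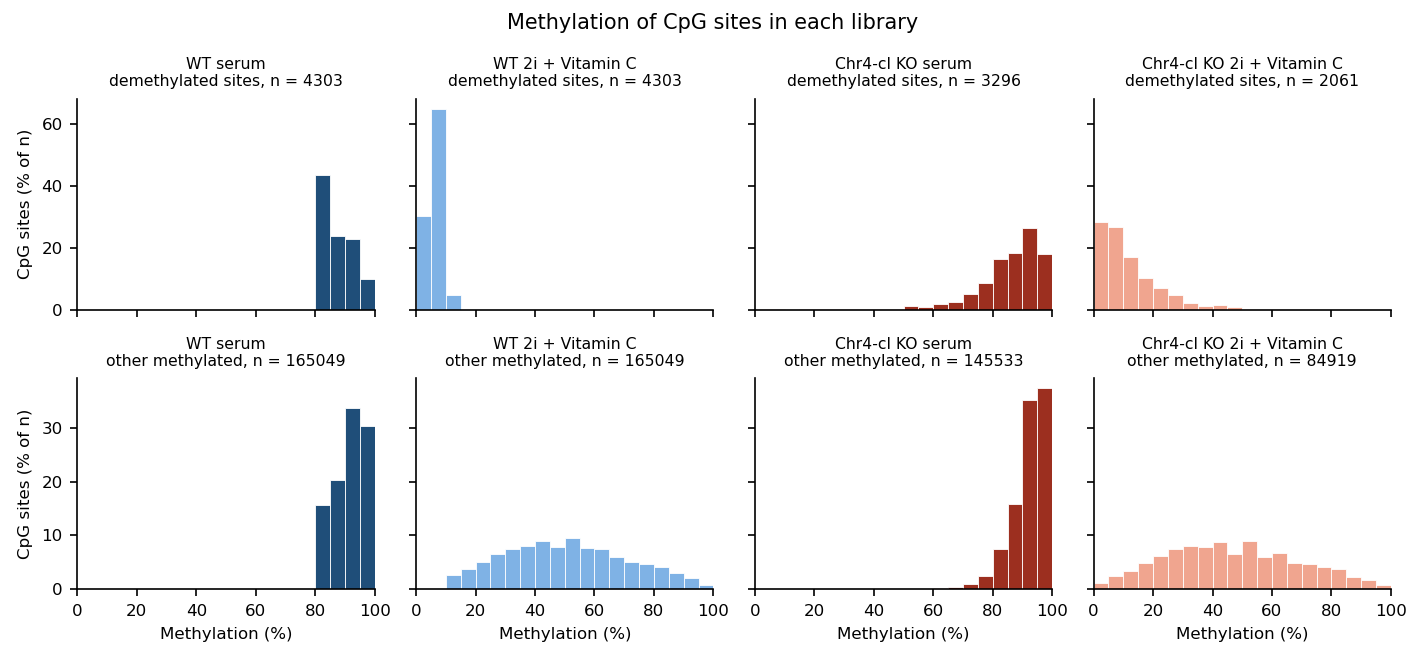
Distribution of methylation (x axis, %) over the demethylated sites (upper row) and the other sites at 80% or more in WT serum (lower row) in each library, as the percent of sites with 10 reads (y axis, 5-point bins that include their lower edge, so sites at exactly 10% fall in the third). The WT panels are cut off by the rule, whereas in KO 2i the demethylated sites pile up near 0 (median 8.70%) and the other sites spread around a mean of 46.3%.

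Between the KO libraries, 1772 of the 1820 demethylated sites with 10 reads in both were called lower in 2i (97.4%), by Fisher's exact test per site, two-sided, with Benjamini-Hochberg adjusted p under 0.05 over all sites and a difference of at least 20 points. Over all 437979 sites tested, 28.6% were called lower, and over the 80861 other sites at 80% or more in WT serum, 63664 (78.7%) were. The median difference was -77.5 points at the demethylated sites, -47.1 points at the other serum-methylated sites and -3.57 points over all sites. Only 48 demethylated sites were not called lower, and 46 of them had lower values in 2i. Those 48 had a median of 14 reads in KO serum and 16.5 in KO 2i, against 33 and 26 at the sites that were called. The opposite call, higher in KO 2i, was made at 2 demethylated sites, against 0.0297% of all sites. Neighbouring sites share reads: of 722 neighbouring pairs within 50 bp, 392 had equal coverage in WT serum, so the calls are not independent.

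**Figure D2:**
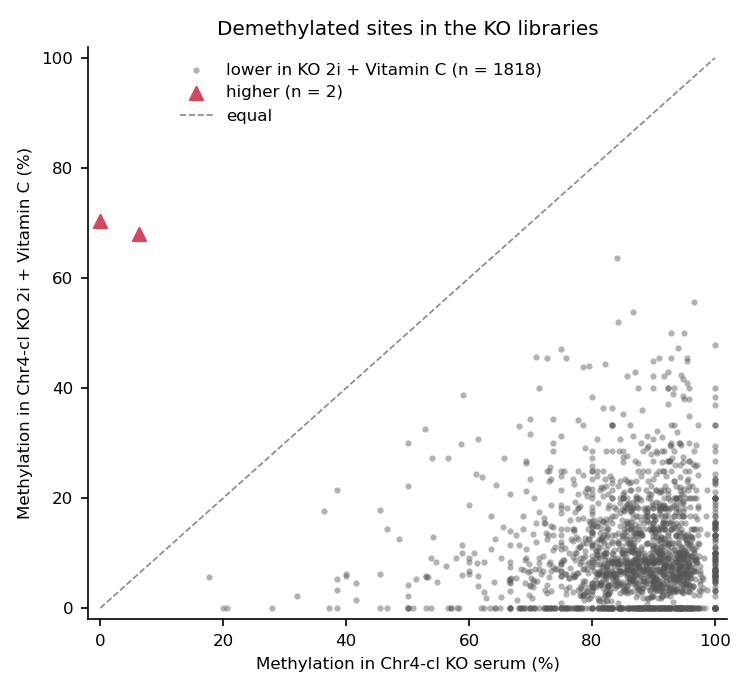
Methylation of the 1820 demethylated sites with 10 reads in both KO libraries, in KO serum (x axis, %) against KO 2i (y axis, %), 1 point a site. Grey points (1818 sites) lie below the line of equal values and the 2 triangles, both upstream of Ccdc107, lie above it.

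Against WT, the KO values can only be described, since the WT values chose the sites. With WT serum at 80% or more and WT 2i at 10% or less, a call, which needs 20 points, could be made lower in KO 2i at no site and higher in KO serum only from the lowest WT values, so nothing is read from the counts of 0 or from the shares beside those of all sites. In serum, 29 of 3296 demethylated sites were called lower in KO than in WT by the same test (0.88%, against 0.115% of all sites) and 0 higher (against 1.82% of all sites). In 2i, 23 of 2061 were called higher in KO (1.12%, against 0.0897% of all sites) and 0 lower (against 0.361% of all sites). The median difference from WT was 0.72 points in serum and 2.73 points in 2i. When the rule was applied to the KO libraries instead, over the 400195 sites with 10 reads in all 4 libraries, it chose 8422 sites, while the WT libraries chose 1820. The sets shared 857 sites, which were 47.1% of the WT set and 10.2% of the KO set. Sites chosen on the KO libraries averaged 74.1% in WT serum and 15.4% in WT 2i, so each set was less extreme in the genotype that had not chosen it.

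In KO 2i, the share of demethylated sites at 20% or more varied with coverage, and their mean methylation differed with position in the MspI fragment. Of the demethylated sites, 363 of 2061 (17.6%) were at 20% or more. The share was 88.3% over the other sites at 80% or more in WT serum and 22.1% over all covered sites. Among the demethylated sites it was 23.3% at 10 to 19 reads in that library, 14.6% at 20 to 49 reads and 12.9% at 50 reads or more. Mean methylation changed less, at 12.11% ± 11.93, 10.85% ± 9.703 and 10.76% ± 8.364 in the same order. Sites inside the CCGG itself averaged 14.2% ± 11.5 in KO 2i (637 sites), and sites 1 to 50 bp away averaged 10.01% ± 9.65 (1404 sites). In WT 2i, which the rule held at 10% or less, the corresponding means were 6.26% and 6.13%. In KO serum they were 85.1% and 86.5%. Over all sites with 10 reads in WT 2i, the means were 25.97% inside the CCGG and 14.72% at 1 to 50 bp. Over all such sites in KO 2i they were 23.01% and 11.4%. A gap of this direction over all sites was also present in serum (51.86% and 28.68% in WT, 52.79% and 29.59% in KO). All sites include those with little methylation in serum, so their gap is no like comparison for the demethylated sites. The part of coverage and fragment position in the KO values was not tested.

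Most demethylated sites lay far from promoters. Of the 4303, 1758 (40.9%) were intergenic, 1542 (35.8%) intronic, 603 (14.0%) in coding exons, 137 (3.18%) in other exons and 98 (2.28%) in promoters of transcripts that are not protein-coding. Promoters of protein-coding genes, taken as 1000 bp before to 500 bp after a start site, held 165 (3.83%). Over all 169352 serum-methylated sites the shares were 2.49% for coding promoters, 34.0% for introns and 45.1% for intergenic sites (the demethylated sites are a subset of these). They were 13.8% for coding exons, 3.13% for other exons and 1.53% for noncoding promoters. Of all covered sites, 40.9% were in coding promoters. Sites that stayed over 80% in WT 2i were placed differently, with 76.6% intergenic and 0.415% in coding promoters. The median distance to the nearest coding start site was 23488 bp for the demethylated sites and 29138 bp for all serum-methylated sites. Bodies of 1496 protein-coding genes held 2363 of the demethylated sites (54.9%), a share with none for other sites beside it, so nothing is read from it. These shares are WT descriptions with no test.

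**Figure D3:**
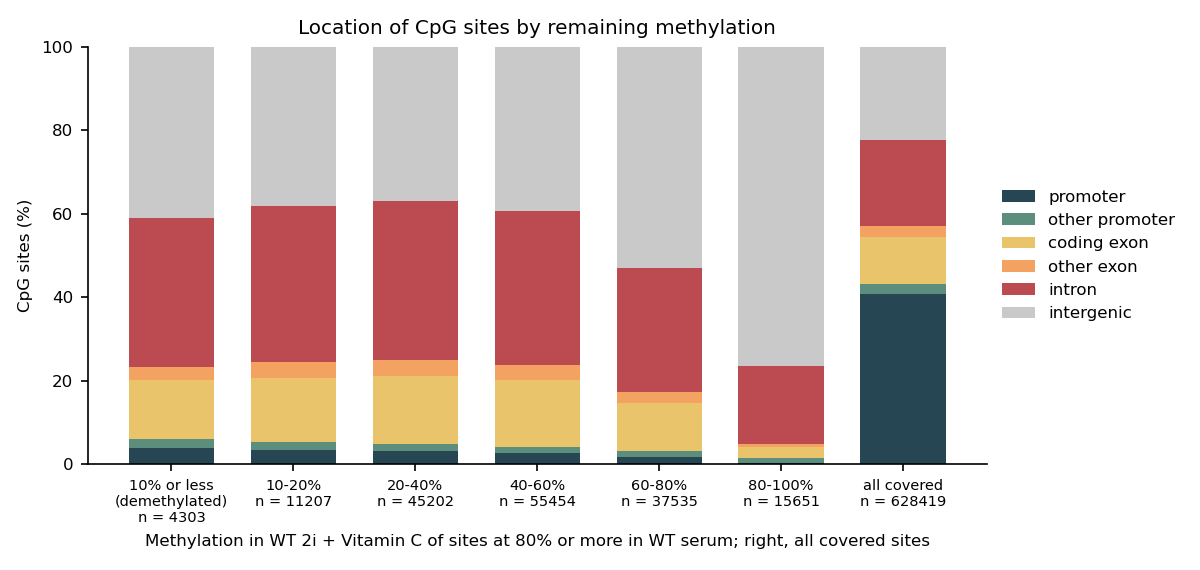
Location (stacked percent of sites, y axis) of sites at 80% or more in WT serum, by their methylation in WT 2i (x axis, bands), with all covered sites at the right. The bar of demethylated sites (40.9% intergenic) is close to the bands up to 60%, while the band over 80% is 76.6% intergenic.

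Mean methylation in KO 2i is given by location with no test. The means ranged from 10.2% ± 10.1 in noncoding promoters (43 sites) to 13.3% ± 10.7 in other exons (71 sites). In KO serum, demethylated sites in coding promoters had the lowest mean, 80.5% ± 16.7 (129 sites), and those in noncoding promoters the highest, 88.8% ± 7.29 (78 sites).

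By chromosome, the share of serum-methylated sites that were demethylated ranged from 1.34% on X (66 sites) to 3.32% on chromosome 16 (157 sites), with 1 site on Y not counted there. Chromosome 5 held the most, 380 sites. On each of these 20 chromosomes the mean was between 83.8% and 88.1% in KO serum and between 8.33% and 14.1% in KO 2i. The share of serum-methylated sites meeting the rule fell with coverage, from 4.03% at 10 to 19 reads in WT serum to 1.22% at 100 reads or more.

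The sequence around the demethylated sites is given beside that of the other serum-methylated sites with no test. They had 6.87 ± 3.61 CpG dyads within 100 bp on each side, against 5.86 ± 3.09 at the other serum-methylated sites and 20.0 ± 8.18 at sites at 10% or less in WT serum. This mean was 6.42, 5.87, 5.51, 5.81 and 6.75 along the bands of methylation left in WT 2i, from over 10% to over 80%. The sites that kept over 80% were thus close to the demethylated sites in CpG density. Median GC content was 53.2% in both serum-methylated groups. CpG dyads with A or T directly before and directly after the CG made up 14.9% of the demethylated sites and 10.8% of the others. Along the bands of methylation left in WT 2i, from over 10% to over 80%, this share was 13.9%, 13.01%, 10.6%, 9.18% and 7.14%. The palindrome CACGTG, the same on both strands, was found in 5.95% of the windows of 100 bp on each side of the demethylated sites, in 3.77% of those around all serum-methylated sites and in 4.7% of those around all covered sites. These letters are a description, not a binding site.

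Methylation of nearby sites followed distance to a demethylated site in both genotypes. Serum-methylated sites within 25 bp of another demethylated site averaged 16.2% in WT 2i (2496 sites) and 15.9% ± 13.6 in KO 2i (1352 sites). At over 100 to 200 bp the KO 2i mean was 24.9% ± 17.2 (856 sites), and at over 1000 to 5000 bp it was 39.9% ± 18.7 (2188 sites). Around serum-methylated sites that kept over 50% in WT 2i the order was opposite, from 59.0% within 25 bp to 32.2% at over 1000 to 5000 bp in KO 2i. In KO serum all of these means were between 89.2% and 93.7%. Sites within 50 bp mostly share reads, and the rule fixed part of the WT means, since demethylated sites count among the neighbours.

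**Figure D4:**
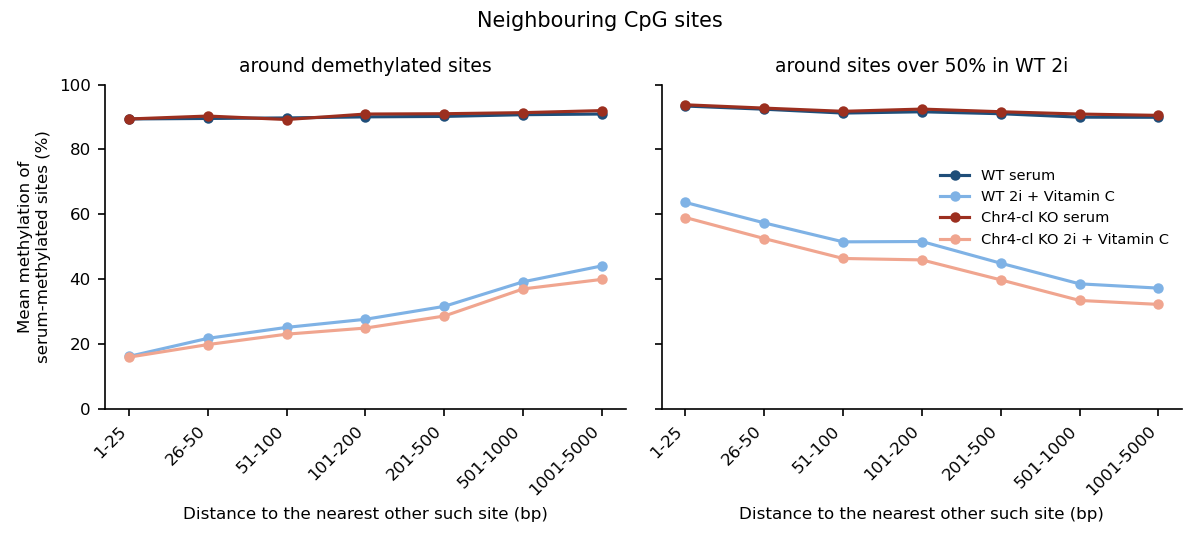
Mean methylation (y axis, %) of serum-methylated sites by distance (x axis, bp) to the nearest other demethylated site (left) or the nearest other site over 50% in WT 2i (right), 1 line a library. Both serum lines are flat near 90%, and both 2i lines rise with distance on the left (KO, 15.9% to 39.9%) and fall on the right (KO, 59.0% to 32.2%).

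When sites up to 500 bp apart were joined, the 4303 sites formed 3226 loci. Of these, 2558 held 1 site (59.4% of the sites), 437 held 2 and 231 held 3 or more, and the largest held 15. In the 98 loci with at least 3 sites that had 10 reads in both KO libraries, pooled methylation was 22.6% to 98.3% (median 89.9%) in KO serum and 0% to 30.1% (median 6.76%) in KO 2i, and all 98 were lower in KO 2i. The intervals given below are 95% Wilson intervals on pooled reads of the demethylated sites in a locus. They cover counting error only, since reads without molecular identifiers and neighbouring sites on 1 read are not independent.

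Among the 10 loci with most demethylated sites (ties at 6 sites broken by reads summed over the 4 libraries, so that other loci with 6 sites are not named), 3 were intergenic, 5 overlapped coding exons and 2 were intronic. The locus near Gsc (chr12:105685174-105685552, 15 of its 24 covered sites) was 90.8% methylated in WT serum, 5.99% in WT 2i, 93.7% (92.5 to 94.7) in KO serum and 9.25% (7.502 to 11.35) in KO 2i. Thus the pooled KO values were within 4 points of the WT values in both media, but only 8 of the 15 sites had 10 reads in KO serum. The Hs3st3a1 locus (chr11:64333834-64334262, 10 of 28 sites), coding sequence of a heparan sulfate sulfotransferase, was at 89.9%, 5.30%, 93.2% and 12.3% (6.08 to 23.3, 57 reads) in the same order. Only 2 of its sites had 10 reads in KO 2i, at 21.4% and 26.7%. Its single sites ranged from 38.5% to 97.5% in KO serum. The intronic locus of Cmklr1 (chr5:114073785-114074133, 7 of 8 sites) had 90.8%, 3.29%, 93.0% and 2.42% (0.826 to 6.87). The coding locus of Thsd1 (chr8:23353745-23354211, 7 of 10 sites), which encodes a membrane protein with a thrombospondin domain, had 87.1%, 6.79%, 89.2% and 7.03% (4.49 to 10.8). In pooled reads, these 4 loci kept the WT order in the KO libraries, high in serum and low in 2i.

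Hcn2 and Wnt3a had the lowest KO serum values of the 10. Since the rule held WT serum at 80% or more and WT 2i at 10% or less, differences from WT at any of these loci are a description, and their intervals are no test of it. At Hcn2 (chr10:79198016-79198731, 12 of 39 sites, exon and UTR), which encodes a pacemaker cation channel, methylation was 89.4% (86.8 to 91.5) in WT serum and 72.6% (69.0 to 75.9) in KO serum, and 6.44% and 6.18% in 2i. The Wnt3a locus (chr11:59063288-59063517, 7 of 10 sites) had 88.6% (85.3 to 91.2) in WT serum, 73.1% (67.5 to 78.1) in KO serum, 4.05% in WT 2i and 1.01% (0.179 to 5.50) in KO 2i. Dusp27 (chr1:168030729-168030845, coding, 6 of 6 sites), a gene of the dual specificity phosphatase family, had 89.6% in WT serum, 81.0% (77.3 to 84.2) in KO serum, 6.77% in WT 2i and 0 of 61 reads methylated in KO 2i, which allows up to 5.92%. The intron of 1700019D03Rik (chr1:52996824-52996915, 6 of 6 sites) had 93.1%, 5.13%, 87.0% and 5.48% in the order WT serum, WT 2i, KO serum and KO 2i. In that order, the intergenic locus 7640 bp from Cnot10 (chr9:114556832-114556999, 6 of 6 sites), a gene of the CCR4-NOT deadenylase complex, had 85.4%, 5.96%, 90.4% and 3.64%. Its KO 2i value rests on 55 reads (1.003 to 12.3), and only 1 of its sites had 10 reads there.

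The highest KO 2i value of the 10 was at the intergenic locus 142902 bp from Kcnip4 (chr5:50058842-50059175, 8 of 10 sites), a gene for a potassium channel interacting protein. Its values were 89.0% in WT serum, 4.09% (2.45 to 6.75) in WT 2i, 90.7% in KO serum and 22.2% (14.2 to 33.1) in KO 2i. The KO 2i value rests on 72 reads, and only 4 of the 8 sites had 10 reads there.

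**Figure D5:**
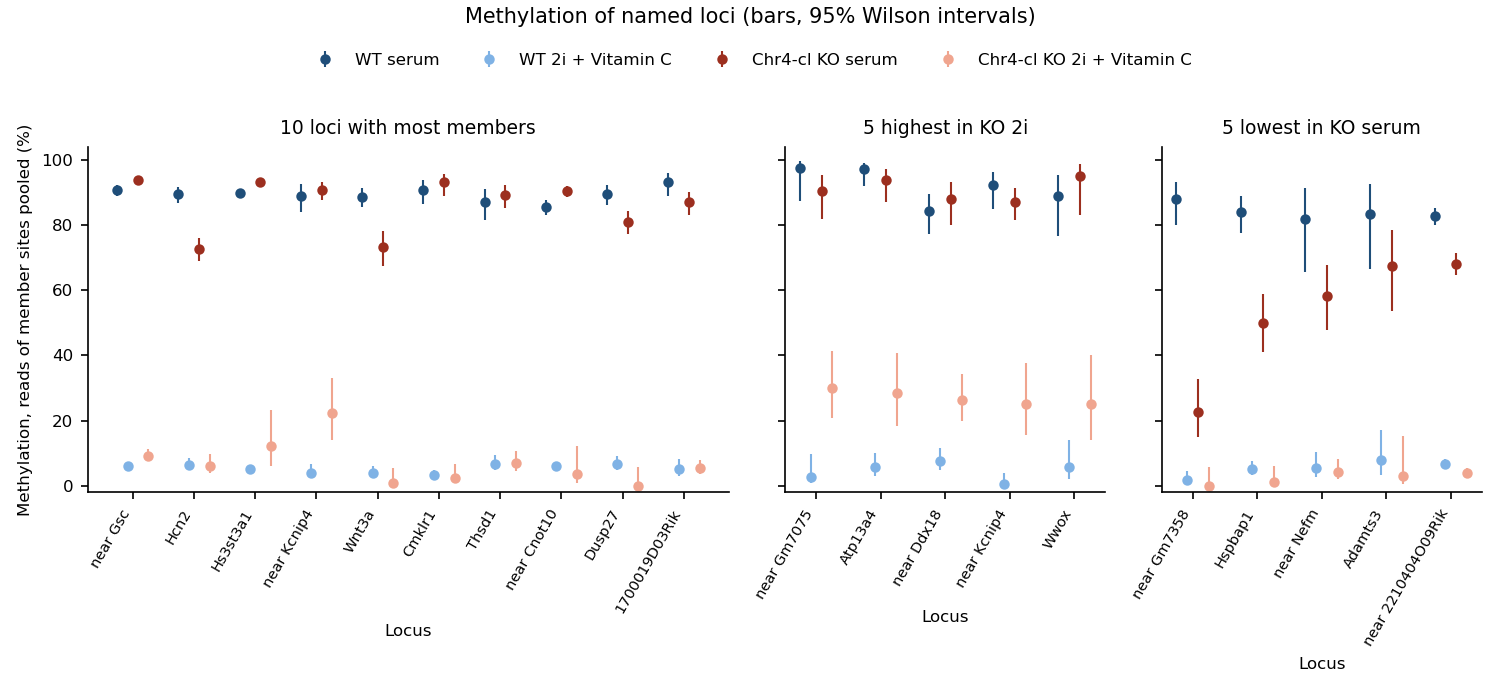
Methylation of the named loci (y axis, %, reads of the demethylated sites pooled) in the 4 libraries, with 95% Wilson intervals as bars. All loci lie low in KO 2i (0% to 30.1%), and in KO serum the 5 lowest range from 22.6% near Gm7358 to 68.0% near 2210404O09Rik.

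The 5 loci chosen for the highest values in KO 2i, among those with at least 3 sites read in both KO libraries, were near Gm7075, in Atp13a4, near Ddx18, near Kcnip4 and in Wwox. Near Gm7075 (chr10:62879193-62879350, 4 sites) methylation was 97.6% of 41 reads in WT serum, 2.82% of 71 in WT 2i, 90.5% of 74 in KO serum and 30.1% (20.8 to 41.4) of 73 in KO 2i. Within it, single sites ranged from 8.33% to 45% in KO 2i. The intron of Atp13a4 (chr16:29516255-29516271, 4 sites), a P-type ATPase gene, had 97.1%, 5.68%, 93.8% and 28.3% (18.5 to 40.8). The locus nearest to Ddx18, an RNA helicase gene 1204764 bp away (chr1:124669330-124669843, 4 sites), had 84.3%, 7.63%, 88.0% and 26.4% (19.8 to 34.3). The part of the Kcnip4 locus read in both KO libraries (chr5:50058842-50058868, 4 sites) and the intron of Wwox (chr8:117781471-117781517, 3 sites), an oxidoreductase gene, both had 25% in KO 2i. Their values in WT 2i were 0.735% and 5.80%. Both the WT limit of 10% and the choice of high KO values set these loci apart, so the gap between WT and KO in 2i is a description.

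The 5 loci chosen for the lowest values in KO serum were near Gm7358, in Hspbap1, at the Nefm promoter, in Adamts3 and near 2210404O09Rik. Near Gm7358 (chr17:14231822-14231864, 3 sites) methylation was 88.0% (79.9 to 93.2) of 92 reads in WT serum, 1.93% of 259 in WT 2i, 22.6% (15.0 to 32.7) of 84 in KO serum and 0 of 64 in KO 2i. It was the only one of the 98 loci with 3 or more sites below 50% in KO serum, and its 3 sites were at 20.0% to 28.0%. The intron of Hspbap1 (chr16:35799441-35799706, 4 sites), named for binding a small heat shock protein, had 84.0% in WT serum and 50% (41.2 to 58.8) in KO serum. The promoter of Nefm (chr14:68743673-68743768, 3 sites), which encodes the medium neurofilament subunit, had 81.8% (65.6 to 91.4) in WT serum and 58.1% (47.9 to 67.6) in KO serum. The coding locus of Adamts3 (chr5:90113392-90113473, 3 sites), a procollagen protease gene, had 83.3% and 67.3%. The locus 12942 bp from 2210404O09Rik (chr17:22058001-22058046, 5 sites) had 82.8% (80.1 to 85.2) and 68.0% (64.5 to 71.3). The WT serum values were held at 80% or more by the rule and these loci were picked for low KO values, so these gaps too are a description. In KO 2i these last 4 loci were at 1.15% to 4.30%.

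Promoters of 120 protein-coding genes held the 165 promoter sites, 92 of them with a single site, 28 with 2 or more and 8 with 3 or more. The 8 genes were Tanc1, Fkbp6, 1700018B08Rik and Gm16519 with 5 sites each, Nefm and Oxgr1 with 4, and Rpl39l and Xlr3b with 3. At the promoter of Tanc1 (chr2:59681398-59681609), which encodes a postsynaptic scaffold protein, methylation was 85.9% in WT serum, 7.19% in WT 2i, 84.1% in KO serum and 7.06% (4.99 to 9.90) in KO 2i. At Fkbp6 (chr5:135825729-135825893, nearest site 2 bp from a start) the values were 86.1%, 7.77% (6.35 to 9.48), 87.9% and 16.0% (11.9 to 21.3). The 5 Fkbp6 sites were chosen for low values in WT 2i, and over all 12 covered sites of the Fkbp6 promoter the means were 18.4% in WT 2i and 19.9% in KO 2i.

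Of the others, 1700018B08Rik (chr8:124065679-124066373) had 84.9% in KO serum and 5.07% in KO 2i, and Gm16519 (chr17:71278463-71278526) had 80% and 12%. All 4 promoter sites of Nefm together had 84.1% (75.1 to 90.3) in WT serum and 57.4% (48.5 to 65.8) in KO serum. The promoter of Oxgr1 (chr14:120441848-120441861), the receptor for oxoglutarate, had only 11 reads in KO serum, all methylated, and 0 of 21 in KO 2i. Rpl39l (chr16:10170320-10170514), a ribosomal protein gene, had 88.3% (83.4 to 91.9) in WT serum, 72.4% (66.4 to 77.7) in KO serum and 3.75% in KO 2i. Xlr3b (chrX:70437635-70437688), of the X-linked lymphocyte-regulated family, had 87.2% in WT serum, 78.9% in KO serum and 6.12% in KO 2i. Of the genes with 2 sites, the pair with most reads over the 4 libraries is given here to complete the 10. Rps6ka2 (chr17:7432239-7432389), a kinase gene, had 82% (75.1 to 87.3) and 66.4% (58.1 to 73.9) in WT and KO serum, and Mtus1 (chr8:42168129-42168174), a microtubule-associated tumor suppressor gene, had 86.8% and 80.3%. Both were under 5% in KO 2i (3.30% and 4.23%).

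Germline genes were the only one of 8 gene lists with demethylated sites in promoters. Many germline genes are known to be silenced by promoter methylation in somatic cells. Of 80 listed genes, 47 had a covered promoter site, 11 had a site at 80% or more in WT serum, and 3 had demethylated sites: Fkbp6 with 5, and Tuba3a and Tuba3b, tubulin genes, with 1 each. These 7 were among 34 serum-methylated sites in germline promoters, against 165 of 4220 (3.91%) over all coding promoters. Fkbp6 alone held 12 of the 34 sites and 5 of the 7, so nothing is read from this share. The 34 sites averaged 87.8% in WT serum, 30.5% in WT 2i, 88.1% in KO serum and 23.0% in KO 2i. The naive pluripotency, primed, trophoblast, 2-cell, DNA methylation machinery and KAP1 pathway lists held 0 to 3 serum-methylated promoter sites each and no demethylated site. The 2-cell list had no covered promoter. With so few sites, the lack of demethylated sites in these lists says little. Promoters of imprinted genes had 18 serum-methylated sites, which averaged 66.9% in WT 2i and ranged from 26.4% to 84.3%, and none was a demethylated site.

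The 2 sites upstream of Ccdc107 were the only ones among the 1820 with a higher value in KO 2i than in KO serum. At chr4:43505777 methylation was 81.8% of 11 reads in WT serum, 3.33% of 30 in WT 2i, 6.25% of 16 in KO serum and 68.0% (48.4 to 82.8) of 25 in KO 2i. At chr4:43505787 it was 81.8% of 11, 0% of 31, 0% of 16 and 70.4% (51.5 to 84.2) of 27 reads. They lie 457 and 447 bp before the nearest Ccdc107 start site and 9 and 19 bp from a CCGG. At 43505662 to 43505703 on the same chromosome, 65 to 106 bp from a CCGG, WT serum had 5 to 15 reads a site and KO 2i 16 to 28, while WT 2i and KO serum had 0. Methylation there was 84.6% to 100% in WT serum and 81.3% to 100% in KO 2i. From 43506277 on, 500 bp further, sites with 10 reads were low in all 4 libraries. WT serum and KO 2i, the libraries that were high at Ccdc107, are also the ones whose files hold tables joined end to end, and which runs those tables come from is not given in the sources used here. The part of the joined tables and of this read placement in the Ccdc107 values was not tested.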

How the data were processed

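The 4 RRBS-seq libraries were WT serum, WT 2i, KO serum and KO 2i (1 per group). Per the study's methods, the authors trimmed paired-end reads with Trim Galore in its RRBS mode, mapped them to mm9 with Bismark and joined the cytosines of each CpG dyad. Tool versions are not given in the sources used here. The deposited files list, per CpG, the read count, the methylated read count (both whole-number counts, not normalized) and the methylated fraction. Counts were used as deposited, and the deposited fraction only to check them. Positions listed more than once in a file were dropped.

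The coordinates matched CG dyads of mm9 (NCBIM37), and genes were taken from GENCODE vM1. The coverage minimum was 10 reads, which at 10 reads makes 1 read worth 10 points. Promoters ran from 1000 bp before to 500 bp after a start site, and sites up to 500 bp apart formed a locus. Named were the 10 loci with most sites (ties by summed reads), the 5 with the highest KO 2i and the 5 with the lowest KO serum value (at least 3 sites with 10 reads in both KO libraries), the 10 genes with most promoter sites (ties by summed reads), and listed genes with 2 or more. Fisher's exact test, two-sided, was run per site over all sites with 10 reads in both libraries, Benjamini-Hochberg adjusted, and called at an adjusted p under 0.05 and 20 points. It was tested on simulated data. The sites, gene lists and tests were chosen with earlier results of these data known. No set test was run. Tests ran in Python 3.11.15 with numba 0.67.0, intervals in scipy 1.17.1, tables in pandas 2.3.3, and figures in matplotlib 3.10.9.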

Additional observations from a re-analysis of the deposited data

Results flagged for a closer look

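The 2 CpG sites upstream of Ccdc107 moved in opposite directions in the genotypes: KO 2i minus KO serum was 61.8 points at chr4:43505777 and 70.4 points at chr4:43505787, whereas WT 2i minus WT serum was -78.5 and -81.8 points. The difference between the genotypes was not tested, and each group had 1 library. The high libraries, WT serum and KO 2i, are those whose files hold tables joined end to end, of which the source is not given in the sources used here, and their part in the values was not tested. At the sites 28 to 118 bp after the first of them, WT serum was 71.4% to 100% methylated (7 to 9 reads a site) and KO 2i 66.7% to 100%. At the sites 9 to 45 bp before it, WT serum was 20% to 50% and KO 2i 68% to 78.3%.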

How the results depend on the processing

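No paired analysis was possible because each group had 1 library. For KO 2i minus KO serum at the named loci, the alternatives that gave a value stayed within the counting interval in 62 cases, moved in 5 and reversed in 0, and several loci had no site left at 20 reads or at limits of 90% and 5%. Of the alternatives for counts (judged at 1.5 times) and means (judged by the narrow counting interval of pooled reads), 24 stayed within these bounds and 28 moved. With a coverage minimum of 5 and of 20 reads, the rule chose 8024 and 2238 sites, of which 3017 of 3654 and 847 of 853 tested were called lower in KO 2i, 291 and 88 were in coding promoters, and the means were 84.6% and 86.7% in KO serum and 13.3% and 9.77% in KO 2i. With limits of 90% and 5%, 426 sites were chosen, 146 of 151 tested were called, 11 were in promoters and KO serum averaged 87.7%. With limits of 70% and 20%, 26676 sites were chosen, 12359 of 12754 tested were called, 1097 were in promoters, and the means were 85.2% and 14.9%. Pooled reads gave 87.1% and 10.8%, and counting each locus once gave 85.6% and 12.1%. A promoter from 250 bp before to 50 bp after a start held 46 sites. Sites at 20% or more in KO 2i numbered 99 of 937 at a minimum of 20 reads, and 925 and 12 of 2061 at limits of 10% and 50%. Sites under 50% in KO serum fell from 32 of 3296 to 13 of 1744 at 20 reads. Thinning to the smaller KO coverage gave 1721 calls. Keeping only sites within 50 bp of a CCGG, an alternative chosen after seeing the data as were those for the genotype calls and the named loci, gave 11.3% in KO 2i and 1753 of 1800 calls. It left out only 32 of the 4303 sites, so these values could hardly move. At 20 reads, 26 sites were called lower in KO serum and 19 higher in KO 2i than in WT. The KO 2i library, with a median of 9 reads at the demethylated sites, sets the limit of depth.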
